A study of Homo sapiens with 18 samples.

Results

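Sphingosine-1-phosphate is a lipid signal made from the membrane sphingolipids, and the chromatin at 9 genes that make it, remove it, sense it or handle its precursor ceramide was examined in ovarian cancer cell lines. The genes were the sphingosine kinases SPHK1 and SPHK2, the lyase SGPL1, the phosphatase SGPP1, the receptors S1PR1, S1PR2 and S1PR3, the ceramide synthase CERS6 and the glucosylceramide synthase UGCG. Their windows were taken from a table of ATAC-seq signal in 1 kb windows of the genome, as every window that overlapped the span of a gene extended by 10 kb on each side. This gave 45 windows out of 89428 in the table, and the same stretches of genome hold 804 windows of the tiling, most of them without enough signal to be listed. The window holding the start of the canonical transcript, called the start window below, was in the table for 9 of 9 genes.

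ATAC-seq marks open chromatin by where the Tn5 transposase can insert adapters into DNA. It was measured in 6 established human ovarian cancer lines with 3 libraries each. A2780 is labelled platinum-sensitive and CP70 is its platinum-resistant derivative selected in culture, and both carry the label endometrial/ovarian. PEA1 (sensitive) and PEA2 (resistant) are a pair from one patient with high-grade serous disease, as are PEO1 (sensitive) and PEO4 (resistant), and in both pairs the resistant line was taken once the disease had become resistant. No line was treated with drug for these libraries according to the labels, every group is 1 line, and resistance in a pair therefore cannot be told apart from any other difference between its 2 lines. The labels do not say that the libraries of a line came from separate cultures, so p-values measure the spread between libraries, which may be technical.

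In sphingolipid metabolism, ceramide is split by ceramidases into sphingosine, which the kinases phosphorylate to sphingosine-1-phosphate. The lyase degrades that product for good and the phosphatase returns it to sphingosine, while ceramide synthases and the glucosylceramide synthase use the other branches. Sphingosine-1-phosphate is known for promoting survival and migration through its G protein-coupled receptors, and ceramide for promoting cell death.

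Levels are FPKM, the reads of a window scaled for its length and for the total of the library, and since all windows have the same length they compare between genes. Library totals ranged from 8963079 reads in a PEO1 library to 60435027 in an A2780 library, and the share of reads that fell in windows of the table from 8.38% in an A2780 library to 40.8% in a PEO1 library. The median start window, over 12744 windows that hold the start of a protein-coding gene, accordingly ran from 1.77 to 2.30 FPKM for A2780 and 2.69 to 3.94 for CP70, from 2.59 to 3.49 for PEA1 and 2.43 to 2.75 for PEA2, and from 6.73 to 7.59 for the PEO libraries. Over the 18 libraries the start windows of 6 of the 9 genes correlated with that median at 0.89 to 0.97, UGCG, S1PR1 and S1PR3 at 0.70, 0.68 and 0.23, so ratios to it are given as well. Of 10 marker genes, the start windows of 6 epithelial or Müllerian ones (PAX8, EPCAM, WT1, KRT7, KRT8 and CDH1) were highest in the PEO lines, with PAX8 at 7.90 FPKM in PEO1 and 0.610 in A2780. These levels are raw, and the median start window was highest in the same lines. Their order alone does not separate lineage from library signal. VIM, a mesenchymal marker, was highest in PEA1 (10.2), and those of MUC16, the leukocyte gene PTPRC and the endothelial gene PECAM1 were not among the windows of the table.

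Differences within a pair are log2 fold changes of FPKM + 0.1 with their SE, tested with limma over all windows with a mean above 1 FPKM in the pair, and a window was called when the Benjamini-Hochberg adjusted p was below 0.05. In CP70 against A2780, 31 windows of the 9 genes were tested, 19 were called higher and 0 lower. Over all 37128 windows tested, 47.5% were called higher and 2.29% lower, so the members stood near the background, with a median of 0.64 against 0.59 for all windows. The share of reads in windows of the table was 11.8% to 15.6% in CP70 libraries and 8.38% to 10.0% in A2780 libraries. A broad rise in openness therefore cannot be told apart from a difference in library signal. In PEA2 against PEA1, 36 were tested, 3 were higher and 17 lower, against 43% higher and 21.4% lower of all windows, with a median of -0.47 against 0.31. In PEO4 against PEO1, 40 were tested, 21 were higher and 8 lower, against 21.9% higher and 45.8% lower, with a median of 0.38 against -0.30. In these latter pairs the median of the members and that of all windows had opposite signs, which did not hold with median centring (-0.98 and -0.20 in PEA2, 0.71 and 0.03 in PEO4) or with the median of each 5 Mb of genome removed (-0.31 and -0.20, 0.22 and 0.06). All start windows in PEA2 had a median of -0.23. With each library centred on its median window, the split of the members moved. CP70 then had 7 higher and 0 lower (15.4% and 3.48% of all windows), PEA2 had 1 higher and 29 lower (30.7% and 42.1%), and PEO4 had 27 higher and 5 lower (34.7% and 31.6%).

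At the 9 start windows alone, 4 were higher and 0 lower in CP70, 5 lower and 0 higher for PEA2, and 5 higher and 2 lower for PEO4. Over all start windows 43.9% were higher and 1.48% lower for CP70, 17.6% and 35.7% for PEA2, and 26.4% and 31% for PEO4. At the thresholds of the study, a log2 fold change above 2 in size and an adjusted p below 0.001, no window of the 9 genes passed in CP70 or PEA2, and 3 passed in PEO4, all at SPHK1 or S1PR1. The S1PR1 distal window among them is in the table through PEO1 alone. Of all windows 0.797%, 12.7% and 8.49% passed in the 3 pairs. By class, 9 of 17 promoter windows and 5 of 8 distal windows were higher in CP70, and 9 of 20 promoter and 4 of 10 distal windows were lower in PEA2. In PEO4 10 of 19 promoter windows were higher and 5 lower, and of 16 distal windows 8 and 3. The lower PEO4 windows include all S1PR1 windows but the start, which are in the table through PEO1 alone. Some distal windows counted are likewise listed through the higher line of the pair alone. These are chr17:74382300-74383300 and chr10:72567900-72568900 (PEO4), chr17:74388600-74389600 (PEA1) and chr19:49133700-49134700 (CP70). No share of all distal windows was computed, so the classes are not compared. A promoter window overlapped the interval from 1 kb upstream to 100 bp downstream of an annotated start of the gene, and the remaining windows were distal or belonged to the promoter of a neighbouring gene.

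**Figure D1:**
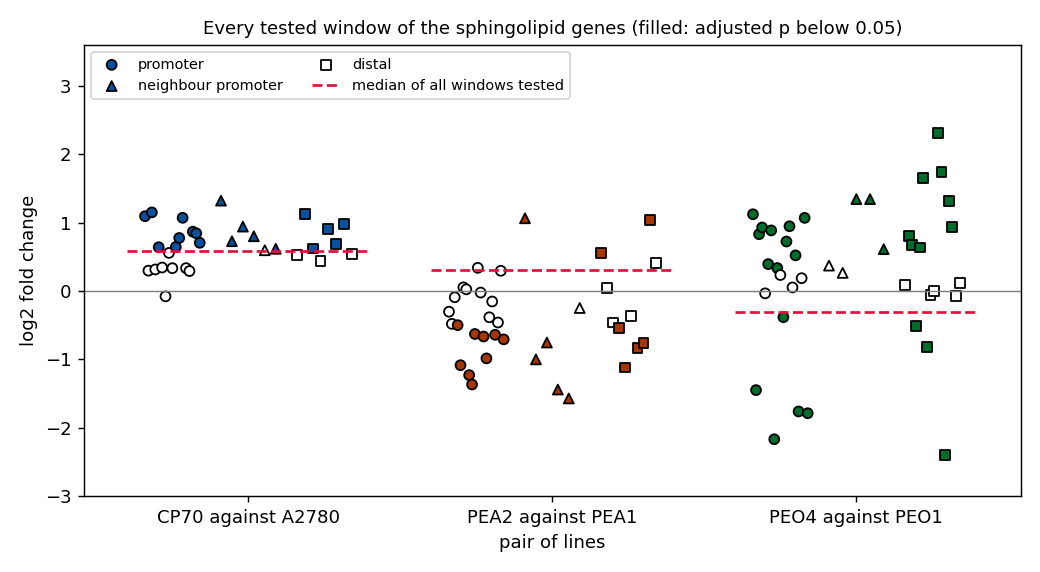
Log2 fold change (y axis) of every tested window of the 9 genes in each pair (x axis), by class, with filled symbols for adjusted p below 0.05 and a dashed line at the median of all windows tested. The members sit around the line in CP70, mostly below it in PEA2 (median -0.47 against 0.31) and mostly above it in PEO4 (0.38 against -0.30), with the S1PR1 windows as the low points of PEO4.

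SPHK1, the kinase that makes sphingosine-1-phosphate at the plasma membrane, had its start window at chr17:74380500-74381500 (hg19), over its first exons. In A2780 the libraries read 2.65, 2.10 and 1.74 FPKM and in CP70 5.68, 3.95 and 4.27. In PEA1 they read 5.03, 4.27 and 4.12, and in PEA2 2.69, 2.83 and 2.80. In PEO1 they read 7.59, 10.1 and 8.25, and in PEO4 15.3, 18.1 and 16.7. The start window shares its upstream end with PRPSAP1, a gene read in the other direction. The libraries of a pair did not overlap in any of the 3 pairs, the resistant line being the higher in CP70 and PEO4 and the lower in PEA2. The order over the lines was PEO4, PEO1, CP70, PEA1, PEA2 and A2780, in which only CP70 and PEA1 overlapped, and PEO4 stood 7.72 times above A2780.

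The median start window differed between the lines as well, so library signal and line cannot be told apart in that range. Relative to the median start window of the same library, SPHK1 stood at 2.33 ± 0.176 (SD, n = 3) in PEO4 and between 1.07 and 1.49 in the 5 other lines, so the excess of PEO4 over PEO1 (1.19 ± 0.139) remained while that of PEO1 over A2780 (1.07 ± 0.213) lay within the spread. The log2 fold changes of the start window, 1.07 ± 0.281 in CP70, -0.67 ± 0.228 for PEA2 and 0.95 ± 0.118 for PEO4 (SE), passed in each pair. They stood beside medians of 0.51, -0.55 and 0.87 for all tested windows in the same 5 Mb of chromosome 17. With each library's own median over all listed windows of that 5 Mb subtracted, the change was 0.62 in CP70 (adjusted p = 0.125, limma). In PEO4 it was 0.21 (adjusted p = 0.154, limma), and neither passed. In PEA2 it was -0.38 and passed (adjusted p = 0.0281, limma). These values need not equal the change less the medians quoted, which are of fold changes of tested windows. The part of the wider region in these changes was not tested. In PEA2 the change was 0.15 with a correction for GC content (adjusted p = 0.612, limma) and -0.58 without PEA1 replicate 1 (adjusted p = 0.064, limma).

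The 87 bases directly before the annotated start of SPHK1 lie between that start and the PRPSAP1 start, and are shown because the change at the start was seen in all pairs. They are GC-rich (83.9%) and hold 1 match to GGGCGG, the letters of a GC box, in capitals on the plus strand of chr17:74380603-74380689 (GRCh37):
SPHK1 upstream: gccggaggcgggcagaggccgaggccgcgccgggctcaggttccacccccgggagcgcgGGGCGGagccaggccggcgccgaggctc

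The gene had 11 windows in the table, more than any other of the 9. In CP70, 5 of 5 tested windows were higher, beside 47.5% of all windows. In PEA2 4 of 8 were lower and 0 higher, beside 21.4% and 43%. In PEO4 7 of 10 were higher and 0 lower, beside 21.9% and 45.8%. The window at chr17:74382300-74383300 is in the table through PEO4 alone. That at chr17:74388600-74389600, among those lower in PEA2, is in the table through PEA1 alone. The windows on either side of the start moved with it, from 0.93 to 1.12 in PEO4 and from 0.84 to 1.15 in CP70. The 2 upstream ones lie in PRPSAP1, which encodes a phosphoribosylpyrophosphate synthetase-associated protein, so their signal cannot be given to one gene.

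The largest rise of all member windows was distal, at chr17:74391300-74392300, with its centre 11110 bp downstream of the SPHK1 start and inside the gene UBE2O, which encodes a ubiquitin-conjugating enzyme. PEO4 libraries read 15.9, 17.1 and 15.2 FPKM and PEO1 libraries 3.14, 2.97 and 3.34. A2780, CP70, PEA1 and PEA2 averaged 0.489, 0.872, 0.666 and 0.572. The window was thus as open in PEO4 as the SPHK1 start itself, was open to a lesser degree in PEO1, and did not exceed 1.06 FPKM in any library of the other lines. The log2 fold change of PEO4 was 2.32 ± 0.129 (adjusted p = 1.17e-17, limma), against a 5 Mb median of 0.87. The next window, which shares 101 bp with it, rose by 1.74 ± 0.161.

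The other distal windows in UBE2O followed another order. At chr17:74389500-74390500, named after its values were seen, PEA1 (3.81 ± 0.226 FPKM, n = 3) was above PEA2 (1.77 ± 0.582), whereas PEO1 (6.68 ± 0.778) and PEO4 (6.41 ± 0.655) overlapped. The change was -1.12 ± 0.231 in PEA2 and -0.06 ± 0.137 in PEO4, the latter with an adjusted p of 0.727 by limma. At its neighbour chr17:74388600-74389600, also named after its values were seen, PEA1 was the highest line (2.46 ± 0.545 FPKM). It was separate from PEA2 (1.64 ± 0.215), and PEO1 (0.335 ± 0.237) was the lowest. Only PEA1 libraries exceed 2 FPKM there, so that window is in the table through PEA1 alone. A high PEA1 was therefore favoured by the filter of the table, and the fall in PEA2 there is no separate support.

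**Figure D2:**
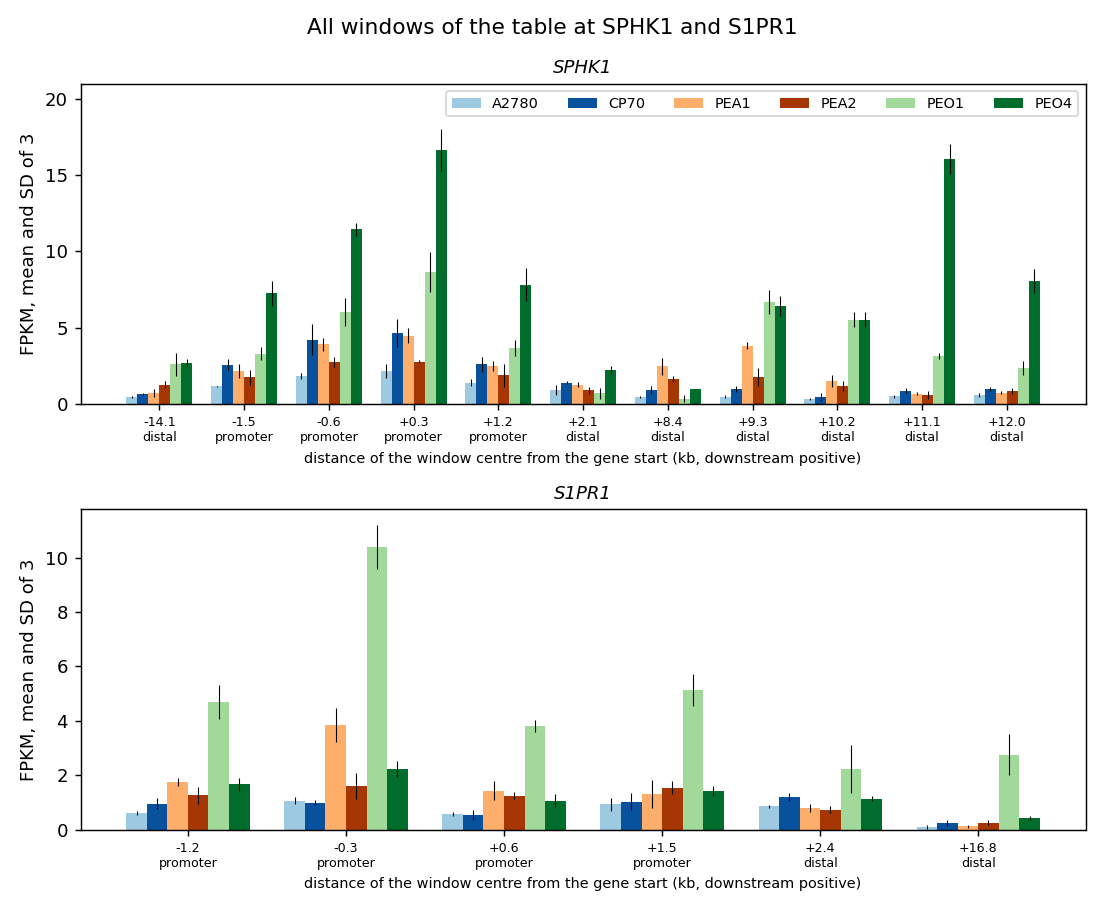
FPKM (y axis, bars the mean and lines the SD of 3 libraries per line) of each window in the table at SPHK1 and S1PR1, ordered by the distance of the window centre from the gene start (x axis, kb). At SPHK1 the PEO4 bars rise at the start (16.7) and again 11.1 kb downstream (16.1), and at S1PR1 the PEO1 bars are the highest in each window shown, 10.4 at the start. All S1PR1 windows but the start are in the table through PEO1 alone.

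SPHK2, the kinase found largely in nuclei and mitochondria, started at chr19:49122000-49123000, a window that also holds the start of RPL18, a ribosomal protein gene read in the other direction. In A2780 the libraries read 2.74, 2.55 and 1.84 FPKM and in CP70 4.02, 3.11 and 3.39. In PEA1 they read 5.54, 4.55 and 3.74, and in PEA2 1.704, 1.68 and 1.73. In PEO1 they read 9.92, 11.3 and 9.14, and in PEO4 14.0, 12.2 and 12.1. PEA2 was the lowest line and separate from all others, and the change of -1.37 ± 0.229 in that pair (adjusted p = 1.09e-08, limma) stood against a 5 Mb median of -1.12. In PEO4 it rose by 0.34 ± 0.116 (5 Mb median 0.40), a call lost without PEO4 replicate 1 (adjusted p = 0.0941, limma) or PEO1 replicate 3 (adjusted p = 0.0635, limma), and CP70 gave 0.56 ± 0.276 with an adjusted p of 0.0765 by limma.

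Other windows of SPHK2 had an order of their own, and those given here were chosen after their values were seen. An alternative SPHK2 start inside the gene, at chr19:49127400-49128400, averaged 1.99 ± 0.348 FPKM (SD, n = 3) in A2780 and 3.50 in CP70 but 0.371 in PEO1 and 0.556 in PEO4. The window over the last exon, at chr19:49132800-49133800 and shared with the gene DBP, averaged 2.25 and 4.34 in A2780 and CP70 and between 0.199 and 0.645 in the other lines. At the canonical start the PEO lines were instead the highest. The rises in CP70 were 0.70 ± 0.270 and 0.91 ± 0.280, beside a 5 Mb median of 0.71. At the start of DBP, a circadian transcription factor gene whose promoter is within 10 kb of SPHK2, chr19:49140000-49141000 averaged 5.05 FPKM in PEA1 against 1.80 in PEA2, and 6.35 in PEO1 against 16.3 in PEO4, with changes of -1.44 ± 0.229 and 1.34 ± 0.118. The distal window of SPHK2 with the highest mean, at chr19:49139100-49140100, moved the same way, by 0.98 for CP70, -0.83 for PEA2 and 1.31 for PEO4, and passed in each pair. In PEA2 the call was lost with the GC correction (-0.30, adjusted p = 0.307, limma) and the sign turned with the 5 Mb median removed (0.11), and in CP70 the latter left 0.26 (adjusted p = 0.463, limma).

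SGPL1, the lyase that ends the pathway, started at chr10:72575100-72576100. A2780 libraries read 1.74, 2.37 and 1.64 FPKM and CP70 libraries 2.65, 2.10 and 2.51. PEA1 libraries read 3.43, 2.99 and 2.78 and PEA2 libraries 1.98, 1.73 and 2.13. PEO1 libraries read 6.27, 6.89 and 6.69 and PEO4 libraries 7.33, 8.30 and 7.77. It followed the libraries more closely than any other of the 9, with a correlation of 0.97 to the median start window over the 18 libraries and ratios to it between 0.749 in PEA2 and 1.09 in PEO4. The change passed in PEA2 (-0.63 ± 0.231, adjusted p = 0.0118, limma) and not in CP70 (0.33 ± 0.261) or PEO4 (0.23 ± 0.129). In PEA2 it did not pass with a correction for GC content (-0.04), nor without PEA2 replicate 2 (adjusted p = 0.0524, limma) or PEA1 replicate 1 (adjusted p = 0.0806, limma).

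Distal stretches of SGPL1 moved more than its start in PEO4. The distal window with the highest mean, chr10:72647100-72648100, is intronic to SGPL1. Its centre also lies inside the gene PCBD1, so its signal cannot be given to one gene. There PEO1 libraries read 3.54, 4.36 and 2.68 FPKM and PEO4 libraries 7.03, 7.34 and 5.88, a change of 0.94 ± 0.162. In PEA2 that window fell by 0.77 on the log2 scale, a call lost with the GC correction (-0.22, adjusted p = 0.449, limma) and without PEA2 replicate 2 (adjusted p = 0.066, limma). About 6.4 kb upstream of the gene, chr10:72568800-72569800 (chosen after its values were seen) averaged 3.76 ± 0.567 FPKM in PEO1 and 6.01 ± 0.162 in PEO4 and no more than 0.774 in the other lines.

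SGPP1, which dephosphorylates sphingosine-1-phosphate, started at chr14:64194300-64195300 and was among the genes whose sensitive PEO line was the more open. A2780 libraries read 2.51, 3.09 and 2.38 FPKM and CP70 libraries 5.68, 3.53 and 3.64. PEA1 libraries read 4.52, 4.55 and 3.12 and PEA2 libraries 5.72, 4.51 and 5.10. PEO1 libraries read 11.1, 13.7 and 11.03 and PEO4 libraries 9.83, 8.495 and 9.02. The ranges overlapped in the PEA pair alone of the 3 pairs. The change was 0.64 ± 0.284 in CP70 (adjusted p = 0.0481, limma), 0.34 ± 0.228 in PEA2, which did not pass, and -0.38 ± 0.119 in PEO4 (adjusted p = 0.00497, limma). The call in CP70 was lost whichever of the 6 libraries was left out, with adjusted p from 0.0517 to 0.189, and the call in PEO4 without PEO1 replicate 2 (adjusted p = 0.0596, limma). Relative to the median start window SGPP1 was highest in PEA2 (1.96 ± 0.112) and between 1.28 and 1.64 elsewhere. Its one distal window, intronic, changed by 0.56 ± 0.232 in PEA2 and by -0.52 ± 0.158 in PEO4. The call in PEA2 was lost without PEA2 replicate 1 or 3 or PEA1 replicate 1 or 3, with adjusted p from 0.0597 to 0.0931.

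**Figure D3:**
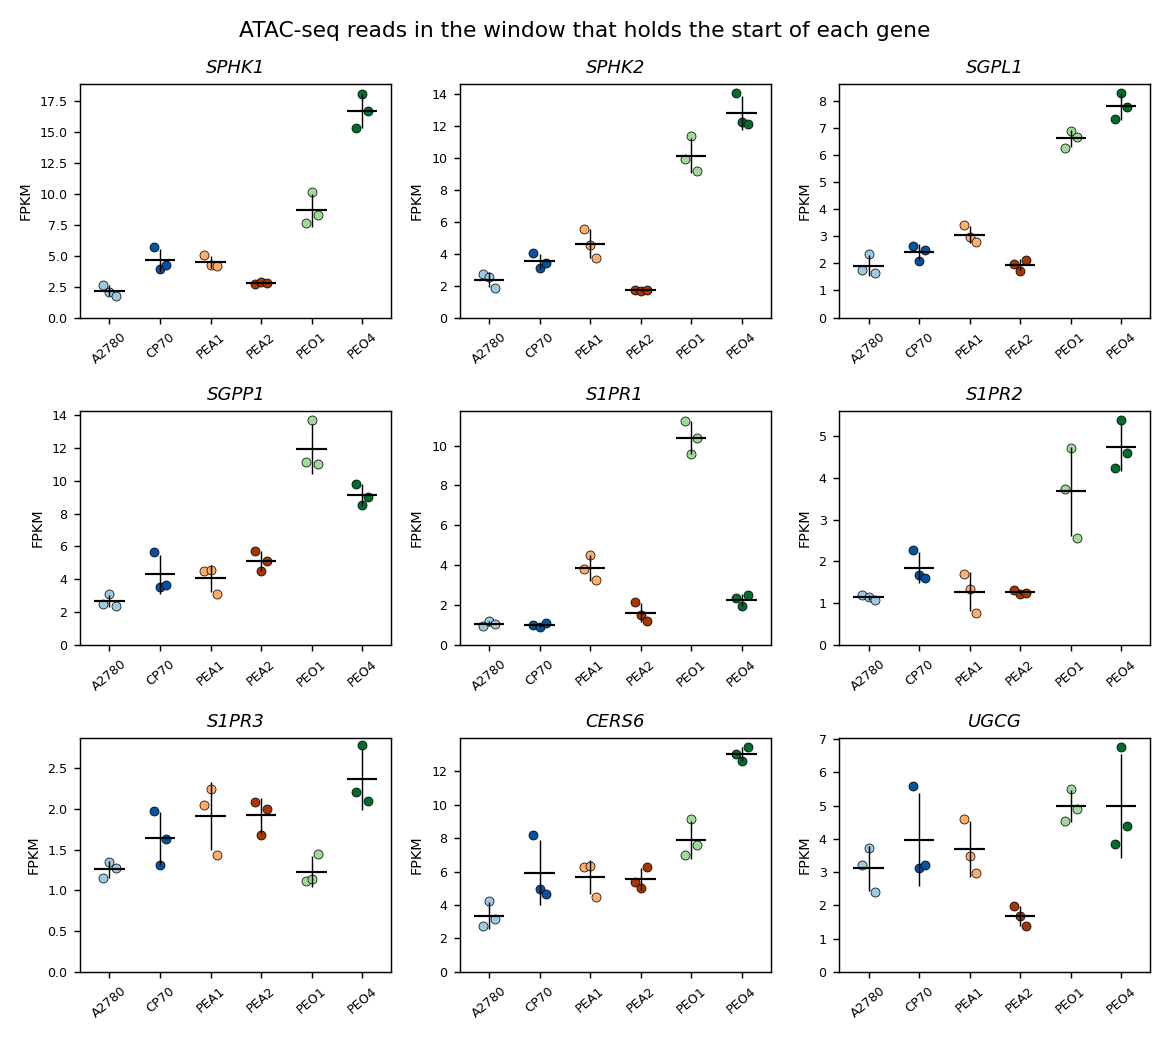
FPKM (y axis) of the start window of each gene in the 6 lines (x axis), with points for the 3 libraries, horizontal bars for the mean and vertical lines for 1 SD. By their means the PEO lines are the highest for SPHK1, SPHK2, SGPL1, SGPP1, S1PR2, CERS6 and UGCG. S1PR1 is instead high in PEO1 and PEA1 (10.4 and 3.85), and S1PR3 is at 1.23 in PEO1.

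S1PR1, the receptor that directs lymphocyte egress and vessel stability and couples to Gi, had the largest change of the start windows. Its start window was chr1:101701800-101702800, most of it upstream of the gene and over the start of the divergent transcript S1PR1-DT. PEO1 libraries read 11.2, 9.60 and 10.4 FPKM and PEO4 libraries 2.33, 1.92 and 2.49. PEA1 libraries read 3.78, 4.52 and 3.26 and PEA2 libraries 2.14, 1.503 and 1.198. A2780 libraries read 0.942, 1.19 and 1.03 and CP70 libraries 0.985, 0.898 and 1.09. Both serous sensitive lines lay above their resistant partner with no overlap, and A2780 and CP70 overlapped near 1 FPKM.

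The log2 fold change was -2.17 ± 0.151 in PEO4 (adjusted p = 5.36e-15, limma), which is 0.216 of the level in PEO1, and -1.23 ± 0.231 in PEA2 (adjusted p = 3.84e-07, limma). In CP70 it was -0.08 ± 0.284 with an adjusted p of 0.812 by limma. The 5 Mb medians were -0.61, -0.62 and 0.81. The change exceeded the thresholds of the study in PEO4 only, and after removal of the 5 Mb median no window of the 9 genes passed those thresholds there. The ratio to the median start window was 1.44 ± 0.154 in PEO1 and 1.22 ± 0.102 in PEA1, and between 0.316 and 0.619 in the 4 other lines. In PEO4, 6 of 6 tested windows of S1PR1 were lower, beside 45.8% of all windows, among them the 3 other promoter windows at -1.45, -1.76 and -1.79. The table holds only windows above 2 FPKM in at least 2 libraries. All S1PR1 windows but the start pass that limit in PEO1 alone, so their falls are no separate support for the fall at the start. In PEA2 1 of 4 was lower and in CP70 0 of 2, so the fall in PEA2 was called at the start window and not at its neighbours (-0.48, -0.15 and 0.29). The distal window within the gene, chr1:101704500-101705500, fell by 0.82 in PEO4, a call lost without PEO1 replicate 1 (-0.62) or 2 (-0.67).

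The upstream part of the S1PR1 start window, chr1:101702181-101702420 on the plus strand of GRCh37, lies between the first exon of S1PR1-DT and the first exon annotated for S1PR1. It is shown because this window had the largest fall among the start windows. Its GC content is 50.8%, and capitals mark 1 match each to TATAAA and GGGCGG, both read on the other strand:
S1PR1 upstream: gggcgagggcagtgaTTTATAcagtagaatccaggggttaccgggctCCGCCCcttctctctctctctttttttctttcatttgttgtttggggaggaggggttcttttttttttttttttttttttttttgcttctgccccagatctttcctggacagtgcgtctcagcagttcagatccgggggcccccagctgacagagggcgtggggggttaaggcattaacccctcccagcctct

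A distal window at chr1:101718900-101719900, its centre 16825 bp downstream of the start and beyond the end of the gene, had the largest fall of all member windows. PEO1 libraries read 2.13, 3.58 and 2.56 FPKM and PEO4 libraries 0.523, 0.384 and 0.399, which is 8 to 9 reads per PEO4 library. The other lines averaged between 0.0818 and 0.256. The change was -2.39 ± 0.296. Only PEO1 libraries exceed 2 FPKM here, so the window is in the table through PEO1 alone. A fall from PEO1 was therefore favoured by the filter of the table, and no p-value is given as support. The GC content of the window is 18.8%, the lowest of the member windows, and its part in this value was not tested.

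S1PR2, a receptor that couples to G12/13 and restrains migration, started at chr19:10341900-10342900. Levels were low, with A2780 libraries from 1.07 to 1.19 FPKM and CP70 libraries from 1.59 to 2.27. PEA1 libraries lay between 0.767 and 1.698 and PEA2 libraries between 1.21 and 1.32. PEO1 libraries lay between 2.56 and 4.71 and PEO4 libraries between 4.24 and 5.38. The lines of a pair separated in CP70 alone. The change was 0.64 ± 0.252 in CP70 (adjusted p = 0.0281, limma), 0.05 ± 0.262 in PEA2 and 0.39 ± 0.178 in PEO4 (adjusted p = 0.0491, limma). The call in PEO4 was lost without PEO4 replicate 2 or 3 or PEO1 replicate 1 or 3 (adjusted p from 0.0541 to 0.405, limma) and by edgeR on the reads (adjusted p = 0.0638), and that in CP70 without CP70 replicate 1 or any A2780 library, with adjusted p between 0.0548 and 0.113. Its second promoter window also lies in DNMT1, the maintenance DNA methyltransferase gene, and was called in PEO4 (0.52 ± 0.186).

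S1PR3, which couples to several G proteins, was the least open of the 9 in PEO1. Its start window, chr9:91605600-91606600, read 1.11, 1.13 and 1.45 FPKM in PEO1 and 2.21, 2.78 and 2.09 in PEO4. The other lines averaged 1.26 ± 0.101 in A2780, 1.64 ± 0.326 in CP70, 1.91 ± 0.420 in PEA1 and 1.92 ± 0.216 in PEA2. Of the 9 start windows it followed the libraries least, with a correlation of 0.23 to the median start window over the 18 libraries and a ratio of 0.170 ± 0.0314 in PEO1 and 0.329 ± 0.0330 in PEO4 against 0.530 to 0.738 elsewhere. PEO4 was above PEO1 by 0.88 ± 0.236 (adjusted p = 0.0012, limma) against a 5 Mb median of 0.07. This rested on 11 to 13 reads per PEO1 library, and with the GC correction it was 0.48 and did not pass (adjusted p = 0.133, limma). The changes in CP70 (0.34 ± 0.253) and PEA2 (0.02 ± 0.238) did not pass.

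CERS6, which makes ceramides with C16 acyl chains, started at chr2:169312500-169313500 with the highest mean of the 9. A2780 libraries read 2.72, 4.24 and 3.16 FPKM and CP70 libraries 8.18, 4.97 and 4.65. PEA1 libraries read 6.25, 6.32 and 4.51 and PEA2 libraries 5.39, 5.03 and 6.26. PEO1 libraries read 6.98, 9.16 and 7.58 and PEO4 libraries 13.02, 12.6 and 13.45. PEO4 was separate from all other lines, and the 4 lines from CP70 to PEO1 in the order overlapped with their neighbours. The change was 0.77 ± 0.300 in CP70 (adjusted p = 0.0252, limma), -0.02 ± 0.230 in PEA2 and 0.72 ± 0.120 in PEO4 (adjusted p = 2.16e-06, limma). The call in CP70 was lost without A2780 replicate 1 (adjusted p = 0.184, limma) or 3 (adjusted p = 0.119, limma), with median centring (0.52, adjusted p = 0.207, limma) and with the GC correction (0.38, adjusted p = 0.203, limma). That in PEO4 was lost with the GC correction (0.31, adjusted p = 0.0589, limma). In PEA2 the 5 Mb median was 0.83, and with each library's own 5 Mb median removed CERS6 stood at -1.24 (adjusted p = 2.29e-06, limma).

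An intronic window of CERS6 was lowest in A2780 and CP70 and highest in the PEO lines, whose median start window was also the highest. At chr2:169401600-169402600, 89318 bp into the gene and of low GC content (37.6%), A2780 and CP70 averaged 0.301 and 0.338 FPKM, PEA1 1.68 ± 0.594, PEA2 3.46 ± 0.842, PEO1 5.50 ± 0.409 and PEO4 5.25 ± 0.860. PEA2 rose by 1.03 ± 0.232 (adjusted p = 2.49e-05, limma, 5 Mb median 0.83), which was 0.54 with the GC correction and did not pass (adjusted p = 0.0643, limma), and -0.18 with the 5 Mb median removed. For PEO4 the change was -0.07 ± 0.148, with overlapping libraries.

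UGCG, which turns ceramide into glucosylceramide, started at chr9:114658200-114659200. A2780 libraries read 3.23, 3.72 and 2.40 FPKM and CP70 libraries 5.61, 3.11 and 3.23. PEA1 libraries read 4.61, 3.49 and 2.97 and PEA2 libraries 1.98, 1.68 and 1.38. PEO1 libraries read 4.55, 5.50 and 4.90 and PEO4 libraries 3.84, 6.77 and 4.38. All lines but PEA2 overlapped with their neighbour in the order, and PEA2 lay below every other line. The change there was -1.09 ± 0.231 (adjusted p = 8.23e-06, limma, 5 Mb median -0.57), and the second promoter window fell by 0.99. CP70 (0.31 ± 0.286) and PEO4 (-0.03 ± 0.167) did not pass. Relative to the median start window UGCG was highest in A2780 (1.52 ± 0.145) and lowest in PEA2, PEO1 and PEO4 (0.645 to 0.694).

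**Figure D4:**
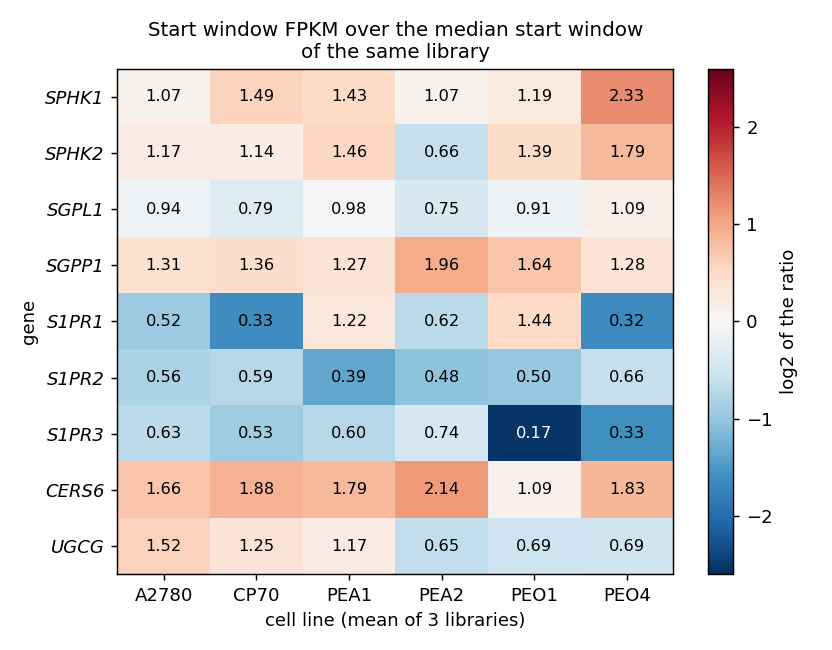
Ratio of the start window FPKM of each gene (rows) to the median start window of the same library, as the mean of 3 libraries per line (columns), coloured by its log2. SPHK1 reaches 2.33 in PEO4, S1PR1 exceeds 1 in PEA1 and PEO1 alone, and S1PR3 falls to 0.17 in PEO1.

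The changes were also set against each other. Among the 6 lines, 42 of 42 tested member windows differed by the F test of limma, as did 99.6% of all windows, so this was no property of the 9 genes. At the start windows, the log2 fold change of one pair was also subtracted from that of another and the result tested. The change in CP70 differed from that in PEA2 at 5 of 9 start windows (56.9% of all start windows), from that in PEO4 at 2 (43.8%), and the change in PEA2 from that in PEO4 at 8 (60.6%). For both kinases the PEA2 change lay below the PEO4 change, by -1.61 ± 0.238 for SPHK1 and -1.70 ± 0.246 for SPHK2, and with the 5 Mb medians removed by -0.60 and -0.53, which still passed. For S1PR1 the CP70 change lay above that of PEO4 by 2.09 ± 0.287, and by 1.59 with the 5 Mb medians removed.

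No window of the 9 genes was called when resistant lines were compared with sensitive lines over the 3 pairs, using 1 mean per line and a term for the pair. This fit of limma tested 42 member windows and called 0, and over all 74141 windows 0%, with a smallest adjusted p of 0.172. At an unadjusted p below 0.05 stood 1 member window, the S1PR1 start (-1.16 ± 0.489), and 1.38% of all windows. With 3 pairs this comparison has few degrees of freedom, and the fitted log2 fold change had one sign over the pairs at 3 of 9 start windows, S1PR1 (negative) and S1PR2 and S1PR3 (positive), none of which passed in every pair. For each of them 1 or more of these values was within its SE of zero, and in PEA2 those of S1PR2 and S1PR3 changed sign with median centring and by edgeR.

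**Figure D5:**
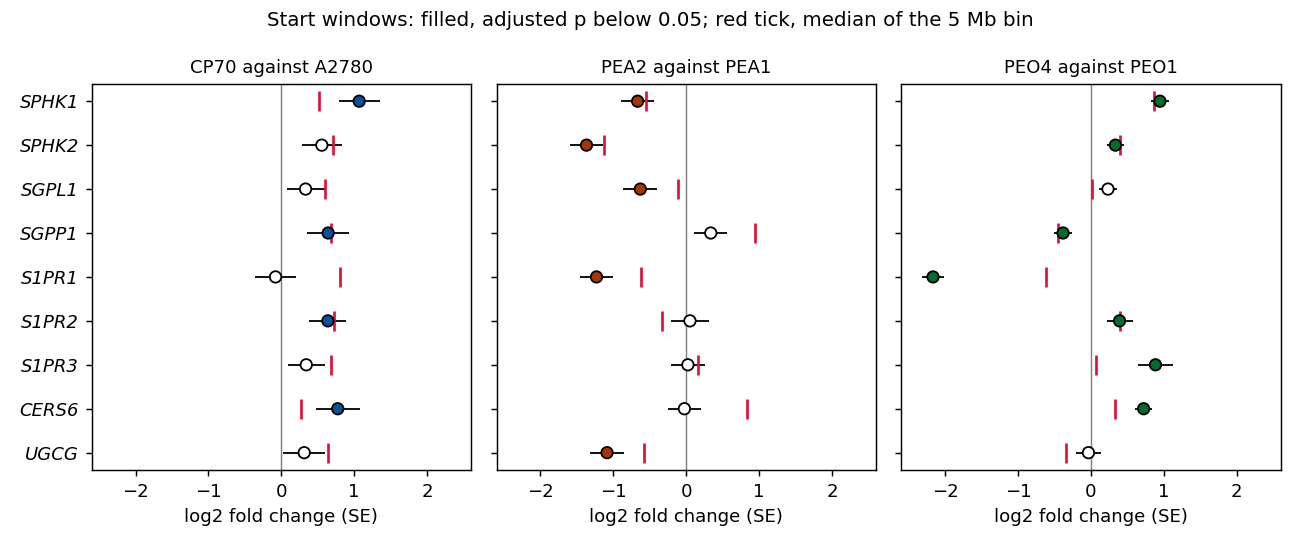
Log2 fold change (x axis, with SE) of the start window of each gene in the 3 pairs, filled where the adjusted p was below 0.05, with a red tick at the median of all tested windows in the same 5 Mb. The SPHK1 point in PEO4 lies beside its tick (0.95 and 0.87) while the S1PR1 point lies far to the left of its own (-2.17 and -0.61).

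Over the 18 libraries the start windows closest to SPHK1, by Pearson's r of log2 values against 13593 other gene starts, were those of HLCS (0.994), TRPT1 and NUDT22 (0.990, 1 shared window), TCFL5 (0.990) and MAPT (0.987). At HLCS the line means ran from 2.45 FPKM in A2780 to 8.07 in PEO1 and 14.4 in PEO4. Among the members SGPL1 came nearest (0.944, rank 860) and SPHK2 next (0.944, rank 891), while S1PR1 (0.478) and S1PR3 (0.376) were the most distant. These are descriptions over libraries that share the depth of signal given above, with which SPHK1 itself correlated at 0.94.

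A list of 42 other genes of sphingolipid metabolism and signalling gave the setting, and 36 of their start windows were in the table. Of 33 tested for CP70, 13 were higher and 0 lower. Of 36 tested for PEA2, 5 were higher and 18 lower, and of 36 for PEO4, 7 were higher and 11 lower, none at the thresholds of the study. For comparison, 43.9% of all start windows were higher for CP70, 17.6% higher and 35.7% lower for PEA2, and 26.4% higher and 31% lower for PEO4. The medians of the list were 0.56, -0.49 and -0.12, against 0.58, -0.23 and -0.02 for all start windows. In CP70 the largest rises were at SMPD2, a neutral sphingomyelinase (1.53 ± 0.277), and SGMS2, a sphingomyelin synthase (1.16 ± 0.276). In PEA2 they were at GALC, which degrades galactosylceramide (1.60 ± 0.229), and CERK, the ceramide kinase (1.04 ± 0.229), and the largest falls at SPNS2, the exporter of sphingosine-1-phosphate (-1.65 ± 0.227), and ASAH1, the acid ceramidase (-1.38 ± 0.227). In PEO4 the ceramide synthase CERS4 rose by 1.88 ± 0.136 and the lactosylceramide synthase B4GALT5 by 0.62 ± 0.145, and SPTLC3 and SPTSSB, of the serine palmitoyltransferase that opens the pathway, each fell by 1.55 on the log2 scale. The 5 Mb medians were 1.28 for SMPD2 and 0.37 for SGMS2 in CP70, 1.51 for GALC, 1.63 for CERK, -1.42 for SPNS2 and -0.60 for ASAH1 in PEA2, and 0.38 for CERS4, 0.61 for B4GALT5, -1.53 for SPTLC3 and -1.52 for SPTSSB in PEO4. With each library's own 5 Mb median removed, the calls of SMPD2, SGMS2, ASAH1 and CERS4 held. GALC (-0.30), SPNS2 (-0.36), SPTLC3 (0.34), SPTSSB (-0.25) and B4GALT5 (0.17) no longer passed, and CERK turned to -0.68 (adjusted p = 0.00102, limma). The call of B4GALT5 was also lost with the GC correction (0.21). By role, 8 of 15 genes of ceramide synthesis were lower in PEA2 and 1 higher, beside 35.7% and 17.6% of all start windows. In PEO4 5 of the 15 were lower and 2 higher, beside 31% and 26.4%.

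In sequence the 9 starts were alike in being GC-rich. The 250 bases upstream of each start held between 62.8% and 80.8% GC and from 18 to 39 CpG sites. GGGCGG on either strand occurred in 7 of 9, against 59.2% of all 19855 upstream regions and 73.7% of those with a start window in the table. CCAAT occurred in 3 of 9 (34.3% of all). The other motifs occurred in 0 of 9, which were TATAAA (held by 9.3% of all), CACGTG, the letters of an E-box (7.9%), TGANTCA, of an AP-1 element (4.7%), and GGAATG, of a TEAD element (9.8%). SPHK2 and S1PR1 were the starts without GGGCGG in those bases.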

How the data were processed

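ATAC-seq libraries of 6 lines were read from 1 deposited table, each column matched to its sample by line and replicate number (0 columns had no sample). According to the labels and the methods of the study, the authors aligned reads to hg19 with Bowtie2, removed duplicates with Picard, counted reads in 1 kb windows and deposited FPKM, which for windows of equal length is RPM times 1 constant. Versions are not given in the sources used here. Every window of the table exceeds 2 FPKM in at least 2 of 18 libraries, so windows that no 2 libraries passed are missing. Of the values, 100% were whole multiples of 1 read (tolerance 0.01), which gave reads per window of 1001 bp and library totals of 8963079 to 60435027. Reads without molecular identifiers give counting error only.

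The members, gene lists and tests were chosen with earlier results of these data known. Genes came from GENCODE release 44 mapped to GRCh37, whose chromosome lengths matched the table at 23 of 23 steps. In R 4.3.3, log2(FPKM + 0.1) of windows with a mean above 1 FPKM was fitted per pair with limma 3.58.1 (eBayes with trend), Benjamini-Hochberg over all windows tested genome-wide. The study weighted counts by voom, for which the trend stands in. Fold changes understate those of low windows. The fits were tested on simulated data.

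Named windows were, by rule, each start window, the distal window of each gene with the highest mean, distal windows past the thresholds of the study, and, of the other sphingolipid genes, the 2 largest changes per direction and pair. Alternatives were a pseudocount of 1, no filter, median centring, removal of 5 Mb medians, a GC correction, edgeR 4.0.16 on the reads, a replicate block, leaving out each library, and classes by window centre. Removal of 5 Mb medians took from each library its own median log2 value over all listed windows of each 5 Mb. The 5 Mb medians quoted beside changes are instead medians of the log2 fold changes of tested windows. Differences between pairs under centring and 5 Mb removal, and the alternatives for the other sphingolipid genes, were added after the data were seen. The sequences of the distal windows are not reported here.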

Additional observations from a re-analysis of the deposited data

Results flagged for a closer look

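The change from the sensitive to the resistant line differed between pairs at the start windows below, by limma's test of the difference of log2 fold changes with Benjamini-Hochberg adjustment over all windows tested. The CP70 change minus the PEA2 change was 1.74 ± 0.339 for SPHK1 (adjusted p = 6.61e-06), 1.92 ± 0.336 for SPHK2 (5.55e-07), 0.96 ± 0.334 for SGPL1 (0.0104), 1.15 ± 0.345 for S1PR1 (0.00295) and 1.40 ± 0.344 for UGCG (0.000299). The CP70 change minus the PEO4 change was 1.03 ± 0.289 for SGPP1 (0.00381) and 2.09 ± 0.287 for S1PR1 (4.07e-07).

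The PEA2 change minus the PEO4 change was negative for SPHK1 at -1.61 ± 0.238 (1.01e-07), SPHK2 at -1.70 ± 0.246 (6.27e-08), SGPL1 at -0.86 ± 0.250 (0.00239), S1PR3 at -0.86 ± 0.322 (0.0167), CERS6 at -0.75 ± 0.242 (0.00609) and UGCG at -1.05 ± 0.290 (0.00149). It was positive for SGPP1 at 0.72 ± 0.246 (0.0091) and S1PR1 at 0.94 ± 0.281 (0.0032). With median centring the PEA2 minus PEO4 difference was -0.12 for SGPP1 and 0.09 for S1PR1, and with the 5 Mb medians removed -1.05 and 0.32, so for SGPP1 the sign turned and for S1PR1 neither value passed (adjusted p = 0.739 and 0.2). With the 5 Mb medians removed the CP70 minus PEA2 difference did not pass for SPHK2 (0.27) and SGPL1 (0.46), and the CP70 minus PEO4 difference for SGPP1 was 0.15 and did not pass, nor did it with median centring (0.44).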

How the results depend on the processing

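For 52 named values (10 of them at other sphingolipid genes), 670 values under alternatives were computed, of which 556 kept their direction and side of the threshold, 64 were no longer called, 8 became called and 42 changed sign. The S1PR1 start (-2.24 to -2.06) and the SPHK1 distal window (2.27 to 2.36) in PEO4 were called whichever library was left out. The cause of a change was not tested.

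Counts of called member windows moved most in CP70, where 19 higher became 7 with median centring, 4 with 5 Mb medians removed and 8 with the GC correction, and ranged from 7 to 18 with 1 library left out (7 without A2780 replicate 3, 12 without A2780 replicate 1). The background moved too, from 47.5% higher to 15.4%, 6.97% and 23.5%, and to 17.8% without A2780 replicate 3. In PEA2 centring gave 1 higher and 29 lower and the GC correction 5 and 8, and leaving out 1 library gave 2 to 4 higher and 11 to 18 lower, 11 without PEA1 replicate 1. In PEO4 centring gave 5 lower, and leaving out 1 library 18 to 23 higher and 6 to 8 lower. Centring and 5 Mb removal moved the median of all windows to 0.33 and 0.14 in CP70, to -0.20 and -0.20 in PEA2 and to 0.03 and 0.06 in PEO4. With classes by window centre, CP70 had 5 promoter and 11 distal windows higher, PEA2 7 distal lower, and PEO4 6 promoter and 13 distal higher and 3 promoter and 5 distal lower. At the thresholds of the study 1 member window passed in PEA2 with centring and 1 with 5 Mb removal, and in PEO4 1 with a pseudocount of 1, 2 with the GC correction and 0 with 5 Mb removal.

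Replicate numbers did not pair the samples. Correlations of deviations between libraries of the same number lay between -0.41 and 0.04, and between different numbers they reached 0.43 in the CP70 pair. Only in the PEO pair did each sample correlate best with its own number. With a replicate block 16 member windows were higher in CP70, 3 higher and 15 lower in PEA2, and 22 higher and 8 lower in PEO4.

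Signs turned as follows. With 5 Mb medians removed, CP70 gave -0.16 at the start of SPHK2, -0.23 at SGPL1, 0.20 at S1PR1, -0.046 at S1PR2 and -0.027 at the SGPL1 distal window. PEA2 gave -0.78 at SGPP1 (adjusted p = 0.000151, limma), -0.15 at S1PR3, -0.56 at the SGPP1 distal window, -0.18 at the CERS6 distal window, 0.11 at the SPHK2 distal window, -0.30 at GALC and -0.68 at CERK. PEO4 gave 0.27 at SGPP1, 0.28 at UGCG, 0.13 at the SGPP1 distal window and 0.34 at SPTLC3. With median centring, PEA2 gave -0.17 at SGPP1, -0.46 at S1PR2 and -0.49 at S1PR3, and PEO4 0.30 at UGCG and 0.26 at the CERS6 distal window. With the GC correction, CP70 gave -0.065 at SGPL1 and -0.054 at S1PR3, PEA2 0.15 at SPHK1 and 0.71 at CERS6, and PEO4 -0.055 at SPHK2, -0.17 at SGPL1 and 0.36 at the CERS6 distal window. By edgeR, PEA2 gave -0.058 at S1PR2 and -0.013 at S1PR3 and PEO4 0.014 at UGCG. With 1 library left out the ranges were -0.24 to 0.28 at S1PR2, -0.16 to 0.15 at S1PR3 and -0.18 to 0.059 at CERS6 in PEA2, and -0.27 to 0.13 at UGCG and -0.20 to 0.015 at the CERS6 distal window in PEO4, none of which was called with all libraries. A2780 was read more deeply than the PEO lines, whose windows with about 10 reads set the limit there.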
